A study of Mus musculus with 16 samples.

Results

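The Myc family and its partners are described here at the level of chromatin, as the histone mark peaks that lie in or near 6 genes of mouse embryonic stem cells: Myc, Mycn, Mycl, Max, Mxd1 and Mga. The 6 were taken by name from 21900 protein-coding genes, and for each one every deposited peak was collected that touched its annotated span or the 20 kb on either side, which is called its window. These windows held 57 of the 117176 peaks in the 12 deposited lists. The lists came from chromatin immunoprecipitation with sequencing (ChIP-seq), in which antibodies to a modified histone pull down the DNA wrapped around it and the enriched stretches are then called as peaks. Cells of the Mettl14 knockout (written CKO in the labels) and Mettl14 control cells, both of strain C57BL/6, gave 2 lists each for H3K4me3, H3K27ac and H3K27me3. All of them grew in serum with LIF, the GSK3 inhibitor CHIR99021 and the MEK inhibitor PD0325901, and all carried foreign spike-in chromatin in the precipitation. METTL14 and METTL3 form the core of the complex that places methyl groups on adenosines of messenger RNA, and the series asked how histone marks differ in cells without it. The labels do not give the driver of the deletion, the number of clones or whether replicates were separate cultures, so the p-values measure the spread between these libraries, which may be technical.

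MYC, MYCN and MYCL are basic helix-loop-helix leucine zipper transcription factors that promote growth, ribosome production and proliferation. They bind DNA only as dimers with MAX, at E-boxes with the core CACGTG. MXD1 competes for the same partner and recruits the SIN3 corepressor, and MGA, a very large MAX partner with a T-box, belongs to the Polycomb complex PRC1.6, which keeps germ cell genes silent in embryonic stem cells. Myc and Mycn together support self-renewal of mouse embryonic stem cells, and Max is required for their undifferentiated state. H3K4me3 marks active and poised promoters, H3K27ac active promoters and enhancers, and H3K27me3 regions held silent by PRC2.

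Annotated starts and strands were read from a RefSeq promoter table of GRCm38.p6, the assembly behind mm10, which held 5 of the 6 genes and not Myc. For Myc the end with the lower coordinate was used as the point of reference. The promoters of Max, Mycn and Mycl are shown because H3K4me3 peaks of the knockout lists lay over them. Each runs from 250 bases before to 50 after the annotated start, 5′ to 3′ on the gene's own strand, in lower case, and capitals mark an E-box (CACGTG, which reads the same on both strands).
Max: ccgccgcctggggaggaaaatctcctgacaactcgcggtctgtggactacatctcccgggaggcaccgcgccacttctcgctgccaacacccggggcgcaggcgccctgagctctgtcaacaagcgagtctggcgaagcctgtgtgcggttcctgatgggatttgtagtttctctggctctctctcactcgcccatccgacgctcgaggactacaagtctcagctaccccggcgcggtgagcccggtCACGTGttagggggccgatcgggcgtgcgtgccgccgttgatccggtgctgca
Mycn: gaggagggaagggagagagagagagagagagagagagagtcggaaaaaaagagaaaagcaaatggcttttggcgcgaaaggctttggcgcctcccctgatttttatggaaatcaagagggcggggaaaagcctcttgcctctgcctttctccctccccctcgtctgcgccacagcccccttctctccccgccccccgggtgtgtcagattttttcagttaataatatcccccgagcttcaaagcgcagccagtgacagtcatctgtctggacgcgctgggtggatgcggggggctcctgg
Mycl: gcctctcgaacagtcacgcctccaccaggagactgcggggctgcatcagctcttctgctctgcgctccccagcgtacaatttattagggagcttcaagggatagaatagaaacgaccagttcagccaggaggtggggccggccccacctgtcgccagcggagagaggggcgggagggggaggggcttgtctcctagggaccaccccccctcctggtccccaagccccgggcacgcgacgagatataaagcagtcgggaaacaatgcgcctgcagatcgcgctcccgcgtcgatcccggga
They lie at chr12:76962199-76962498 (minus strand), chr12:12941787-12942086 (minus strand) and chr4:122995681-122995980 (plus strand). The Max promoter held 1 E-box, whose first base is 3 bases before the start, so that it straddles the start itself. The other 4 promoters in the table, those of Mycn, Mycl, Mxd1 and Mga, held no CACGTG, and 7.15% of all 32851 promoters held at least 1. All 5 were above the median of 7 CpG over all promoters, with 14 in Mycn, 22 in Mycl, 24 in Mga, 30 in Max and 39 in Mxd1. The share of all promoters with fewer CpG ran from 63.7% for Mycn to 95.6% for Mxd1. The GC box GGGCGG, searched on both strands, occurred 6 times in Mxd1, 2 times in Mycn, once each in Mycl and Mga and not in Max, and 35.7% of all promoters held it. The promoter with the most CpG, Mxd1, was the one of the 5 that no peak of any mark touched in any list.

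The lists differ in length between the conditions, which bears on every count below. H3K4me3 lists held 8055 to 8131 peaks in knockout and 2431 to 2859 in control cells, H3K27ac lists 15058 to 15271 and 13520 to 15541, and H3K27me3 lists 11349 to 11446 and 6312 to 7203. Peaks have positions and widths and no heights or read numbers, so the depth behind them is unknown and a missing peak means not called, not unmodified. The smallest width in every list was 501 bp. At the ends of Mettl14 itself, H3K4me3 covered 1074 bp and 1295 bp in knockout lists and nothing in control lists, which does not check the deletion. For H3K27ac the antibody label gives the same product as for H3K4me3, and the mark in the titles was followed. Of 10 pluripotent cell markers, 7 carried H3K27ac at the start in all 4 lists, among them Pou5f1, Sox2 and Nanog. The share of all protein-coding genes was 6.74%. Zfp42 had H3K27ac in the knockout lists alone (2001 bp and 1208 bp) and Tfcp2l1 in knockout replicate 2 alone (1172 bp). Here and below, 2001 bp at a start fills the window of 1 kb on either side and is not a peak width. Esrrb had no H3K27ac or H3K4me3 at the start in any list. It had H3K27me3 of 1642 bp and 1588 bp in the knockout lists and 523 bp and 634 bp in the control lists. Of the 8 markers each of fibroblasts, trophectoderm and primitive endoderm, none carried H3K27ac at the start in all 4 lists. In any one list 0 to 2 of the 8 were called, where 13.9% to 21.7% of all protein-coding genes were. For H3K4me3, trophectoderm markers were called at 2 and 2 starts in knockout lists and at 0 in control lists, and pluripotent markers at 9 and 9 against 7 and 3. Among all protein-coding genes, H3K4me3 was called at 31.7% and 31.9% of starts in knockout lists, against 8.23% and 8.42% in control lists. The part of these marker calls in the results below was not tested. In bulk chromatin, a mark in fewer cells and a weaker mark in every cell cannot be told apart.

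Near the annotated starts, the marks of these genes were mostly called in knockout cells. Within 1 kb of a start, H3K4me3 was called at 3 of the 6 genes in each knockout list and at 1 in each control list. H3K27ac was called there at 2 and 3 genes in the knockout lists and at none in the control lists. H3K27me3 was called at 3 and 1 genes in the knockout lists and at none in the control lists. For Mga the start used lies inside its span, so an H3K27ac region at the lower-coordinate end of that span was not counted. That region measured 1604 bp and 1041 bp in the knockout lists, against 811 bp and 0 bp in the control lists. Among all protein-coding genes the shares with a peak at the start were 31.7% and 31.9% in knockout against 8.23% and 8.42% in control lists for H3K4me3, 21.5% and 21.7% against 16.7% and 13.9% for H3K27ac, and 12.2% and 12.5% against 7.01% and 7.93% for H3K27me3. The larger number of genes called in knockout lists is thus shared with genes in general. No test of the 6 genes against other genes was made.

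**Figure D1:**
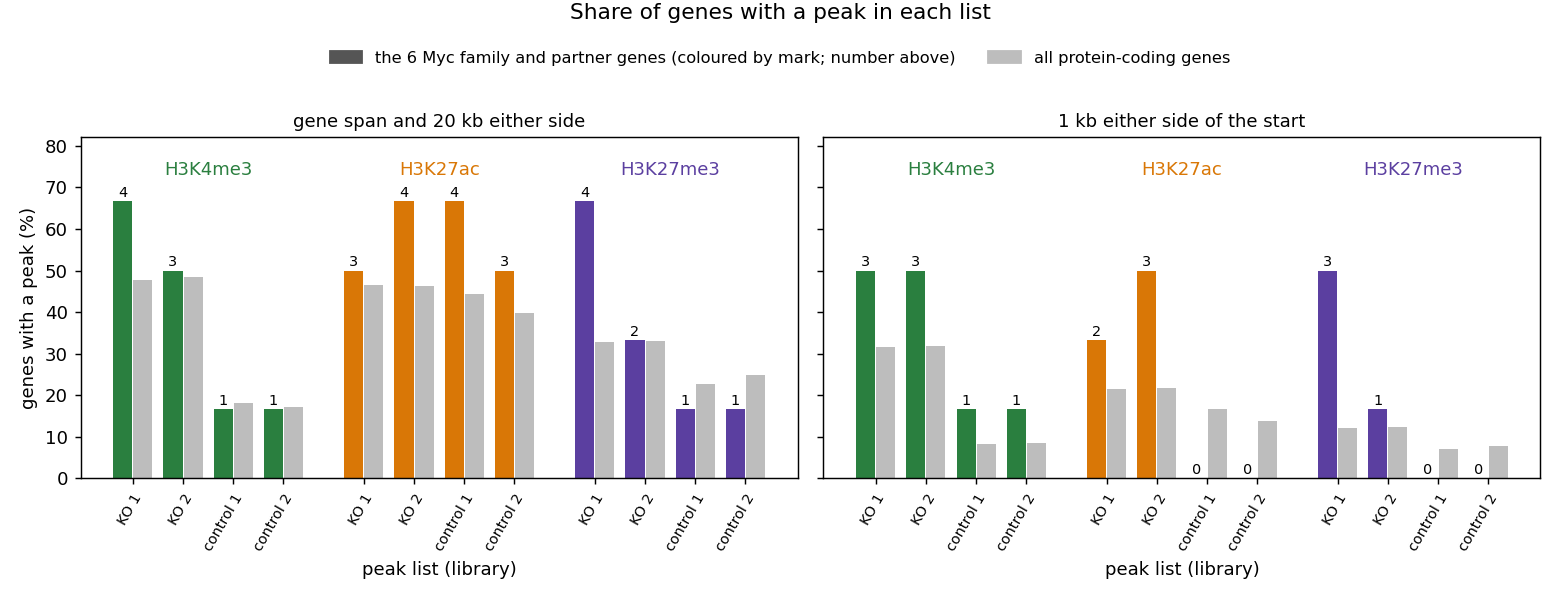
Percentage of genes with a peak in each list, for the 6 Myc family and partner genes (coloured bars, number of genes above) and all protein-coding genes (grey bars), in the wide window (left) and at the start (right). At the start, H3K27ac and H3K27me3 bars of the 6 genes are at 0 in all control lists, where 7.01% to 16.7% of all genes were called. The Mga start used lies inside its span, and the lower-coordinate end of that span is not counted.

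Over the whole windows, the calls of the 6 genes split by mark. H3K4me3 was called in both knockout lists at Mycn, Mycl and Max, 3 of 6 genes, and in both control lists at 0, where 39.9% and 7.88% of all protein-coding genes were called; Mxd1 and Mga had it in no list. H3K27ac was called in both knockout lists at Mycl, Max and Mga and in both control lists at Mycn, Max and Mga (37.1% and 32.0% of all genes), and Max and Mga had it in all 4 lists (26.5%). H3K27me3 was called in both knockout lists at Myc and Mycl and in both control lists at 0 genes (25.1% and 15.9% of all genes), while Max and Mga had it in no list (55.1%). Calls in both knockout lists with none in control lists were made at 1 gene for H3K4me3 (Mycl), 0 for H3K27ac and 0 for H3K27me3, and among all genes at 18.1%, 2.95% and 4.25%. The reverse class held 0 of the 6 genes for each mark and 0.114%, 1.22% and 0.47% of all genes. Mean covered bases were higher in knockout cells at 4 of the 6 genes and lower at 0 for H3K4me3, where 55.1% of all protein-coding genes were higher and 2.95% lower. For H3K27ac they were higher at 2 and lower at 2 (38.7% and 21.6% of all genes), and for H3K27me3 higher at 4 and lower at 0 (35.1% and 7.91%).

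Max, the shared dimer partner (gene ID 17187, mm10 chromosome 12, 76937269 to 76962323, minus strand), had H3K4me3 at its start in 3 of 4 lists. A peak just inside its start measured 924 bp and 1171 bp in the knockout lists, while the control lists had none in replicate 1 and 501 bp in replicate 2. The groups do not overlap. The mean was 1047.5 ± 175 bp in knockout and 250.5 ± 354 bp in control cells (SD, n = 2 each), a difference of 797 bp (exact two-sided permutation p = 0.333). With 2 lists against 2 no smaller p is possible, so no difference between conditions in these data can pass a conventional threshold. The peaks covered 58 and 269 of the 300 promoter bases shown above in the knockout lists and none of them in the control lists, where the single peak lay downstream of that stretch. Such a difference is common: 37.3% of all protein-coding genes had more H3K4me3 in their window in both knockout lists than in either control list.

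The start of Max also carried H3K27ac in the knockout lists alone. The peaks there were 730 bp and 501 bp wide, and no control peak lay within 1 kb (615.5 ± 162 bp against 0 bp; exact two-sided permutation p = 0.333). They lay wholly under the H3K4me3 peaks of the same replicate number. Of all protein-coding genes, 2.83% had H3K27ac at the start in both lists of knockout cells and none in control cells, and Max was the one of the 6 genes in that class. Outside the start, the Max window held 6 further H3K27ac regions, and the groups overlapped. Covered bases in the whole window were 1896 bp and 6928 bp in knockout against 1912 bp and 651 bp in control lists (4412 ± 3560 bp against 1281.5 ± 892 bp; exact permutation p = 0.667). Knockout replicate 2 sets that mean, and without it the difference was 614.5 bp, against 3130.5 bp with it. Its widest peak, 3125 bp, lay in the neighbouring gene Fntb, a farnesyltransferase subunit. There it overlapped 3 peaks that did not touch one another, of 501 bp in knockout replicate 1 and of 626 bp and 651 bp in the control lists. Of 3 regions before the start, beginning 1.81, 2.83 and 6.41 kb from it, 2 were called in a single list and 1 in knockout replicate 2 and control replicate 1. No H3K27me3 peak lay in the Max window in any list.

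Mycn, the family member first found amplified in neuroblastoma (gene ID 18109, chromosome 12, 12936093 to 12941836, minus strand), had an H3K4me3 peak over its start in 3 of 4 lists. It measured 501 bp and 501 bp in the knockout lists, and 649 bp in control replicate 1 and none in control replicate 2 (501 ± 0 bp against 324.5 ± 459 bp; exact two-sided permutation p = 1.0). The widest of these peaks was thus a control one, and the groups overlap. The peaks covered 141 and 173 of the 300 promoter bases in the knockout lists and 239 in control replicate 1.

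H3K27ac at Mycn was scattered over 6 short regions, of which 0 were shared by both knockout lists. Knockout replicate 1 had no H3K27ac peak in the window and knockout replicate 2 had 4, with 2142 covered bases, against 1403 and 1002 covered bases in the control lists (1071 ± 1510 bp and 1202.5 ± 284 bp; exact permutation p = 1.0). One region, 7.95 kb past the end of the gene (12927627 to 12928143), was called at 501 bp in each control list and not in knockout cells, a class that held 2.24% of all merged H3K27ac regions. Knockout replicate 2 had a peak of 501 bp beside it that did not touch it. In the same list a peak of 501 bp covered all 300 promoter bases of Mycn. H3K27me3 was called once, in knockout replicate 1, 1.24 kb inside the gene (501 bp).

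Mycl, the member first found in lung cancer (gene ID 16918, chromosome 4, 122995588 to 123002490, plus strand) was the one gene of the 6 whose window held H3K4me3 in both knockout lists (501 bp and 927 bp) but in no control list (714 ± 301 bp against 0 bp; exact two-sided permutation p = 0.333). The peaks of the knockout lists were at different places. That of replicate 2 lay over the Mycl start and covered all 300 promoter bases, while that of replicate 1 lay 20.5 kb further on at the start of Trit1, which modifies transfer RNA. At its own start Mycl therefore had H3K4me3 in 1 list of 4. Without 1 list the class held 2 genes in place of 1 in 3 cases: Myc and Mycl without knockout replicate 2, Mycn and Mycl without control replicate 1, and Mycl and Max without control replicate 2. No share over all genes is given for these cases.

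The other marks at Mycl came as short, mostly unrepeated peaks. H3K27ac covered 1662 bp and 501 bp in the knockout lists, against 1503 bp and 0 bp in the control lists (1081.5 ± 821 bp against 751.5 ± 1060 bp; exact permutation p = 0.667). Of its 6 regions, 5 were called in a single list, and 1, 8.54 kb past the gene, in knockout replicate 2 and control replicate 1. H3K27me3 covered 1002 bp and 1128 bp in the knockout lists, against 0 bp and 1002 bp in the control lists (1065 ± 89.1 bp against 501 ± 709 bp; exact permutation p = 0.667). Inside the gene it was called in knockout lists alone, in a 501 bp peak of replicate 1 and a 627 bp peak of replicate 2 that did not overlap. Before the gene, peaks of 501 bp were called in both conditions: 1 in each knockout list and 2 in control replicate 2, of which 1 overlapped the peak of knockout replicate 2, in a region 13.3 kb from the gene. In knockout replicate 1, the H3K27me3 peak inside Mycl overlapped an H3K27ac peak over 485 bp. Such an overlap occurred in the windows of 1.57% of all protein-coding genes in that pair of lists, and in those of 0.598% to 1.34% in the other pairs of equal replicate number.

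Myc, the founding member (gene ID 17869, chromosome 15, 61985341 to 61990361), had no H3K27ac peak in its window in any of the 4 lists. H3K4me3 was called in knockout replicate 1 alone, in a 501 bp peak across the lower-coordinate end. H3K27me3 was the mark most often called there. Its peaks near that end measured 501 bp in knockout replicate 1 and 857 bp in knockout replicate 2, overlapped each other, and had no counterpart in the control lists. The merged region ran from 61985494 to 61986717. Within 1 kb of either end of Myc, H3K27me3 covered 501 bp and 481 bp in the knockout lists and 0 bp in both control lists (491 ± 14.1 bp against 0 bp; exact two-sided permutation p = 0.333), and 2.37% of all protein-coding genes were in the same class. A second H3K27me3 region further inside the gene was called in knockout replicate 2 and control replicate 1, at 501 bp each, so over the whole window the groups overlap (929.5 ± 606 bp in knockout and 250.5 ± 354 bp in control cells; exact permutation p = 0.667). In knockout replicate 1 the H3K4me3 and H3K27me3 peaks shared 228 bp, an overlap found in the windows of 2.96% of all protein-coding genes in that pair of lists and of 3.29%, 0.21% and 0.365% in knockout replicate 2 and control replicates 1 and 2.

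**Figure D2:**
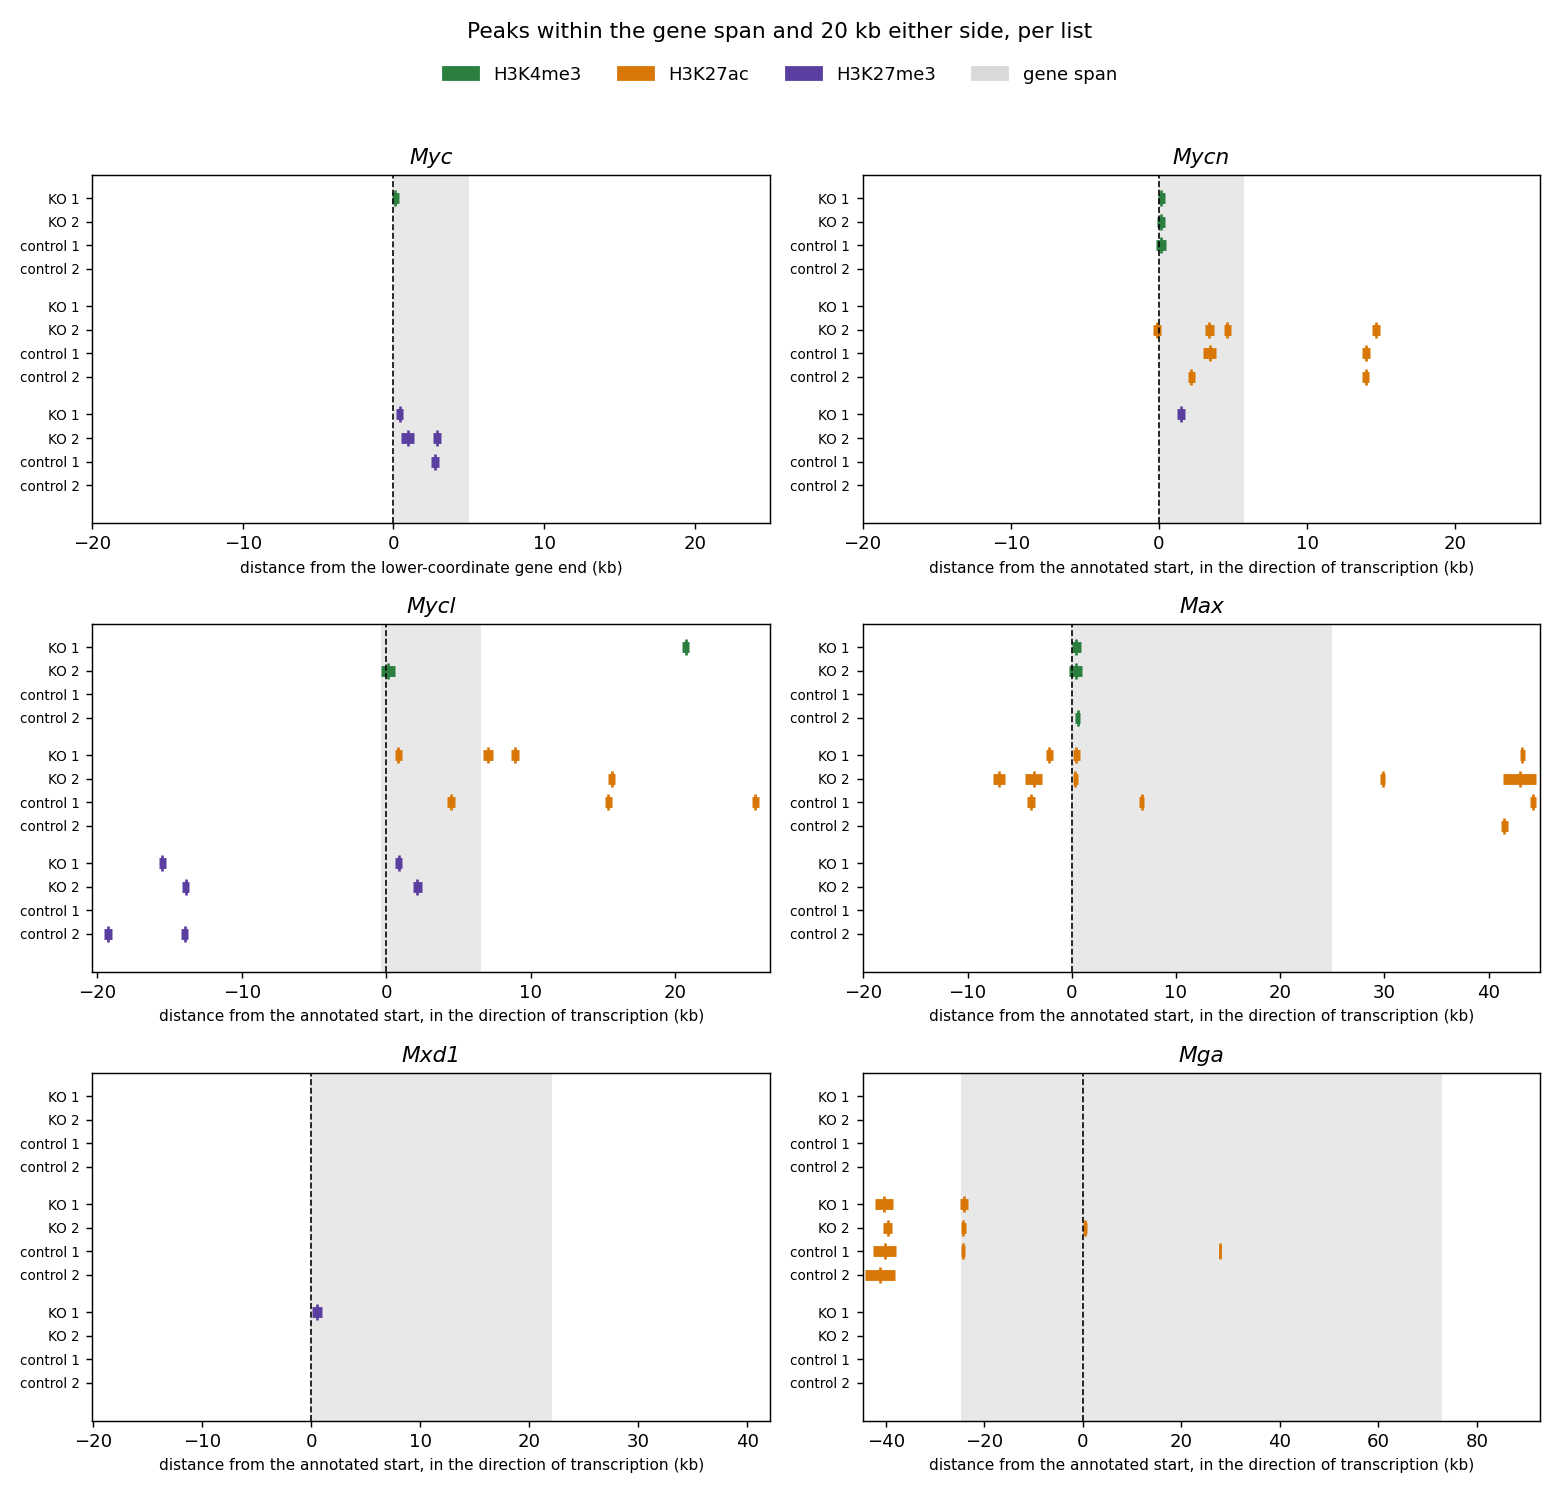
Position of every peak in the windows of the 6 genes, by list, with knockout (KO) lists above control lists within each mark; the x axis is the distance in kb from the annotated start (Myc, lower-coordinate end), grey is the gene span and vertical ticks mark peak midpoints. H3K4me3 sits at the starts of Mycn and Max in several lists, Mga has H3K27ac well before its start, and Mxd1 has 1 peak in all.

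Mxd1, the repressor that competes with MYC for MAX (gene ID 17119, chromosome 6, 86647044 to 86669234, minus strand), was the emptiest window. It held a single peak in the 12 lists, of H3K27me3 in knockout replicate 1, 859 bp wide and starting 126 bp inside the start. H3K4me3 and H3K27ac were not called in it in any list. Its neighbours Snrnp27, a splicing factor gene, and Asprv1, a skin protease gene, contributed no peak within the window either. A window with no H3K4me3 call in any list was found for 41.1% of all protein-coding genes and one with no H3K27ac call for 37.5%.

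Mga (gene ID 29808, chromosome 2, 119872503 to 119970129, plus strand) carried H3K27ac and neither of the other marks. It is the longest of the 6 genes, with a window of 138 kb, against a median of 57.1 kb over all protein-coding genes. H3K27ac covered 5073 bp and 3659 bp in the knockout lists, against 5913 bp and 6040 bp in the control lists. Both knockout values lay below both control values (4366 ± 1000 bp against 5976.5 ± 89.8 bp, a difference of -1610.5 bp; exact two-sided permutation p = 0.333). Of all protein-coding genes, 4.87% had less H3K27ac in their window in both knockout lists than in either control list, against 13.4% with more, and Mga was the one of the 6 genes in either class.

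The lower value rests on 1 region, 13.2 kb before the span of Mga and in no annotated gene (119853009 to 119859322). Its peaks measured 3469 bp and 1705 bp in the knockout lists, against 4601 bp and 6040 bp in the control lists. The mean was 2587 ± 1250 bp in knockout and 5320.5 ± 1020 bp in control cells, a ratio of 0.486 (exact two-sided permutation p = 0.333). Among the 2913 merged H3K27ac regions called in all 4 lists, 12.5% were narrower in both knockout lists than in either control list and 27.5% were wider. The region at the lower-coordinate end of the Mga span ran the other way. It measured 1604 bp and 1041 bp in the knockout lists, 811 bp in control replicate 1 and nothing in control replicate 2, so the groups do not overlap here either (1322.5 ± 398 bp against 405.5 ± 573 bp; exact permutation p = 0.333). The 12.5% and 27.5% do not cover this region, which was called in 3 lists, and no share over all regions is given for its pattern. The start given in the promoter table, 119897228, lies inside the span and carried H3K27ac in knockout replicate 2 alone (913 bp). A further 501 bp peak inside the gene was called in control replicate 1 alone. With only 5 kb on either side of the gene, which leaves the distant region out, covered bases were 1123 bp higher in knockout cells (exact permutation p = 0.333). No share over all genes is given for that narrower window. Mapkbp1, whose span begins just past the end of Mga, had no peak in the window with 20 kb on either side.

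**Figure D3:**
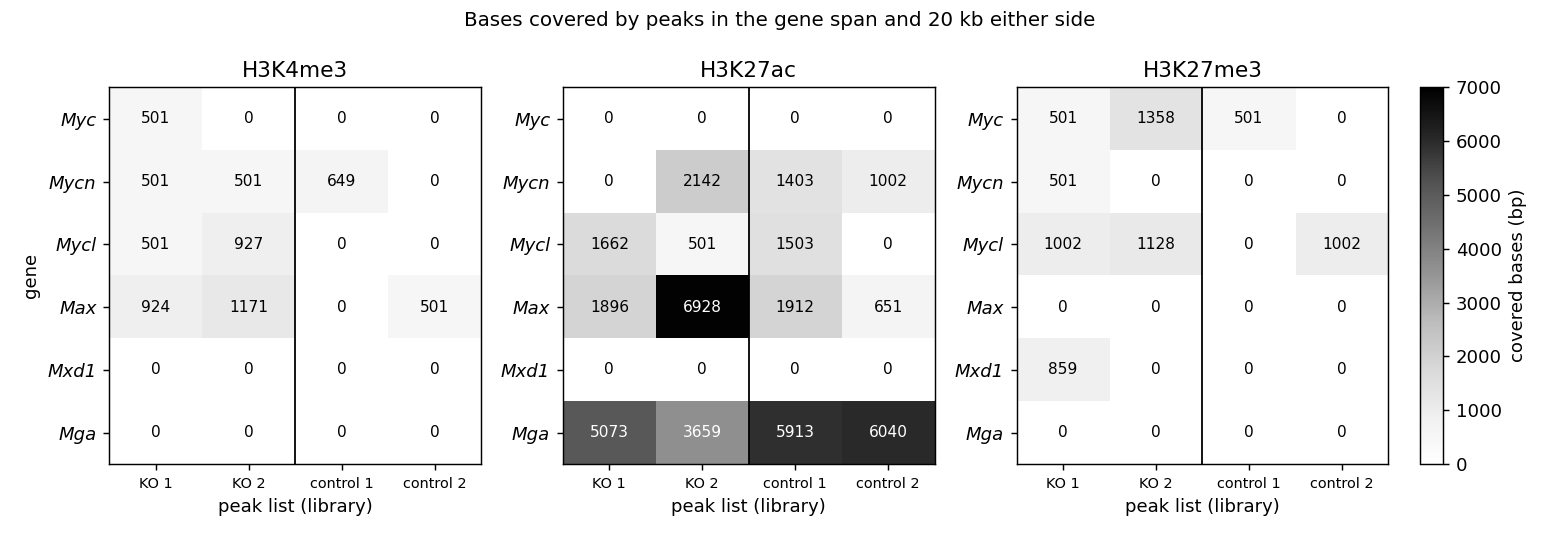
Bases covered by peaks in the window of each gene (rows) in each list (columns, knockout lists left of the line), for the 3 marks; darker cells hold more bases and the number is printed in each. Mga has 3659 bp to 6040 bp of H3K27ac in all lists, and Mxd1 is at 0 except for H3K27me3 in 1 knockout list.

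Per length of window, the order of the genes differed by mark. For H3K4me3 in knockout cells, peaks covered on average 1.61% of the window of Max, 1.52% of Mycl, 1.1% of Mycn, 0.556% of Myc and none of Mxd1 and Mga. In that order the lists of each gene overlapped those of the next, up to Myc. In control cells the shares were 0.709% for Mycn and 0.385% for Max and 0 for the other 4 genes. For H3K27ac the order in knockout cells was Max (6.78%), Mga (3.17%), Mycn (2.34%) and Mycl (2.31%), with overlapping lists between neighbours, and in control cells Mga (4.34%), Mycn (2.63%), Max (1.97%) and Mycl (1.6%), where both Mga lists lay above both Mycn lists. For H3K27me3, Mycl (2.27%) and Myc (2.06%) led in knockout cells with overlapping lists, and Mycl (1.07%) and Myc (0.556%) in control cells. All windows of the 6 genes together were covered to 2.14% and 3.29% by H3K27ac in the knockout lists and to 2.67% and 1.91% in the control lists, where the windows of all protein-coding genes were covered to 1.21% and 1.21% against 1.09% and 0.926%. For H3K4me3 the values were 0.603% and 0.646% in knockout and 0.161% and 0.124% in control lists for the 6 genes, against 0.815%, 0.79%, 0.153% and 0.145% for all genes in the same order of lists.

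Most regions near these genes were called in 1 list only. Merging overlapping peaks of a mark gave 37 regions, of which 24 were found in 1 list, 8 in 2, 3 in 3 and 2 in all 4 lists. By mark, 3 of 5 H3K4me3 regions, 15 of 23 H3K27ac regions and 6 of 9 H3K27me3 regions were found in a single list, against 58.6%, 68.3% and 76.0% of all merged regions of these marks. Peaks of the smallest width made up 19 of the 37 knockout peaks and 12 of the 20 control peaks. Of the 37 regions, 2 were called in both lists of knockout cells and not in control cells, H3K27ac at the Max start and H3K27me3 at the lower end of Myc, and 1 had the reverse pattern, the H3K27ac region past Mycn. Among all merged regions the knockout pattern made up 21.9% for H3K4me3, 3.56% for H3K27ac and 4.82% for H3K27me3, and the reverse 0.0381%, 2.24% and 1.03%. The marks overlapped in the same pair of lists at Max in both knockout replicates and at Mycn in knockout replicate 2 (H3K4me3 with H3K27ac, over 730 bp, 501 bp and 233 bp). The windows of 26.5% and 27.2% of all genes in knockout lists and of 9.48% and 8.94% in control lists held such an overlap.

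The protein-coding genes whose covered bases were most like those of each gene over the 12 lists were picked by the distance between log2(bases/500 + 1) values. The same 12 libraries lie behind the values of every gene, and the nearness says nothing of function. Mga was nearest to Aspa, Spata22 and Gjb5 (distances 0.276, 0.291 and 0.36), with H3K27ac as their one mark and less of it in both knockout lists. Aspa had 4133 bp and 3797 bp of H3K27ac in the knockout lists, against 6077 bp and 6209 bp in the control lists. Spata22 had the same 2 values in the knockout lists, so the 2 genes may share peaks, which was not checked. Likeness of values follows from how the genes were picked. Max was nearest to Rnf135, Tmem241 and Purb (0.972 to 1.06), Myc to Prokr1, Lrp2 and Kank1 (0.88 to 0.934), Mycl to S1pr4, Gna15 and Peli3 (1.12 to 1.55) and Mycn to Gm41408, Scaf11 and Mfap1a (1.45 to 1.55). Mxd1 was nearest to Acsm5, Gm2888 and Gm2897 (0.00532 to 0.0127), each with H3K27me3 in knockout replicate 1 and no other call. Gm41408 and Scaf11 had equal values in every list, as did Gm2888 and Gm2897. Whether these share peaks was not checked either.

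The wider network was read from 5 lists of genes, at the start alone. The first list held 10 other genes of the MYC network, not all of them factors of the MYC and MLX branches. H3K4me3 was called in both knockout lists at Mxi1, Mxd4 and Mnt, all partners of MAX that repress, and in both control lists at 0. Mnt had 1201 bp and 1191 bp in the knockout lists and none in the control lists, and H3K27ac of 782 bp and 1011 bp against none. Mxd4 had 501 bp and 629 bp of H3K4me3 against none. Of all protein-coding genes, 24.8% had H3K4me3 at the start in both knockout lists and 3.3% in both control lists, and 14.0% had it in both knockout lists but in no control list. All 4 lists called 3.15% of genes for H3K4me3, 6.74% for H3K27ac and 2.07% for H3K27me3. Mlxipl, a glucose-responsive factor of the MLX branch, had H3K27me3 at the start in knockout replicate 2 (667 bp) and in both control lists (180 bp and 20 bp), where 7.6% of all genes had it in both knockout lists and 3.44% in both control lists. The control values are below the smallest peak width, 501 bp, and so were edges of wider peaks.

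Of 14 MYC cofactor genes, H3K4me3 was called at 11 in both knockout lists and at 1, the ubiquitin ligase gene Huwe1, in both control lists. The shares of all protein-coding genes were 24.8% and 3.3%. Trrap, the scaffold of acetyltransferase complexes, had 945 bp and 1673 bp in the knockout lists and none in the control lists. The acetyltransferase gene Kat2a had 772 bp and 904 bp against none, the remodeller gene Ep400 1026 bp and 903 bp against none, and the helicase gene Ruvbl2 1227 bp and 1286 bp against none. H3K27ac was called at 8 of the 14 in both knockout lists and at 3 in both control lists, Wdr5 and Huwe1 among them, where 14.1% and 8.86% of all genes were called.

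Of 12 partners of MGA in PRC1.6, 9 had H3K4me3 at the start in both knockout lists and 0 in both control lists. The shares of all protein-coding genes were 24.8% and 3.3%. Pcgf6, which defines this complex, had 501 bp and 501 bp in the knockout lists and none in the control lists. L3mbtl2 had 629 bp and 1070 bp against none, and Rybp 1082 bp and 1068 bp against none. H3K27ac was called at 4 of the 12 in both knockout lists and at 4 in both control lists (14.1% and 8.86% of all genes). Rnf2, Rybp and Cbx3 had it in all 4 lists. E2f6, the DNA-binding partner in the complex, had H3K27me3 of 17 bp and 580 bp at the start in the knockout lists and none in the control lists. The 17 bp were the edge of a wider peak, and 2.37% of all genes were in the same class. At Mga itself H3K4me3 was not called in any list.

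Of 8 genes of the SIN3 corepressor used by MXD1, 7 had H3K4me3 in both knockout lists and 3, Sin3a, Sap30 and Rbbp7, in both control lists. The shares of all genes for these counts, and for those of the 24 targets below, were 24.8% and 3.3%. Sin3a had 2333 bp and 2392 bp in the knockout lists against 1542 bp and 568 bp in the control lists. Of 24 MYC targets in growth and ribosome production, 20 had H3K4me3 in both knockout lists and 7 in both control lists. Some of these calls were short overlaps with the edge of the start window: the nucleolar gene Ncl had 2001 bp and 2001 bp in the knockout lists, against 10 bp and 515 bp in the control lists. Npm1, also nucleolar, had 758 bp and 106 bp in knockout cells, and 21 bp and 156 bp in control cells. The lactate dehydrogenase gene Ldha had 1680 bp and 1855 bp in the knockout lists against 1136 bp and 630 bp in the control lists. The snoRNP gene Nop56 had 1646 bp and 1739 bp against none. H3K27ac was called at 12 of the 24 in both knockout lists and at 8 in both control lists (14.1% and 8.86% of all genes). The cyclin gene Ccnd1 had H3K27me3 at the start in all 4 lists, as 2.07% of all genes did. It covered 628 bp and 501 bp in the knockout lists and 501 bp each in the control lists. The related gene Ccnd2 had 0 bp and 2001 bp of H3K27me3 in the knockout lists, against 1104 bp and 2001 bp in the control lists. No test was made of the difference between these lists and other genes.

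**Figure D4:**
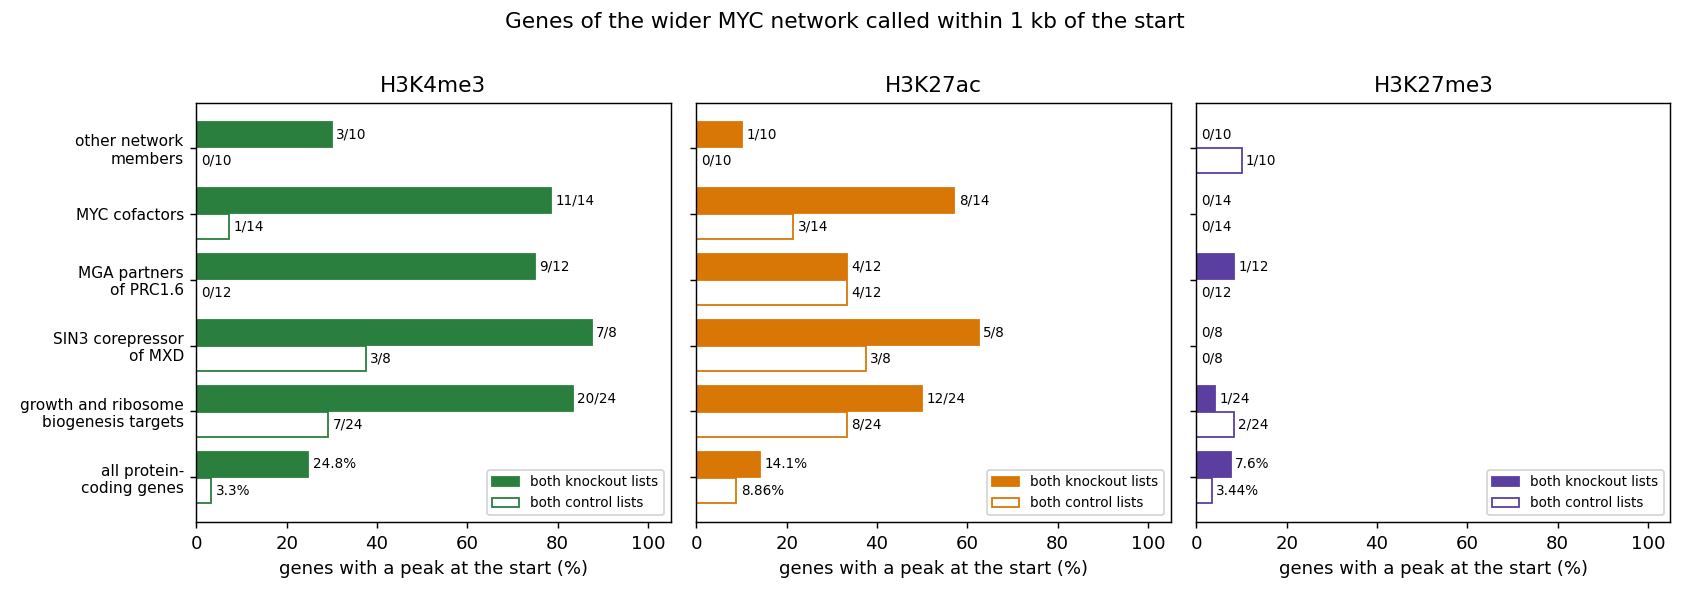
Percentage of genes in 5 lists of the wider MYC network, and of all protein-coding genes, with a peak within 1 kb of the start in both knockout lists (filled bars) and in both control lists (open bars), by mark; fractions give the counts. H3K4me3 bars of the cofactor, PRC1.6, SIN3 and target lists reach 75.0% to 87.5% in knockout cells and that of the other network members 30.0%, where that of all genes is 24.8%.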

How the data were processed

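The 12 deposited peak lists, 2 Mettl14 knockout and 2 Mettl14 control lists for each of 3 marks, were grouped by mark, genotype and replicate number in the sample titles. Input libraries (4) did not enter any step. Trimmomatic 0.38 and Bowtie2 2.4.1 are named, with HOMER, SAMtools, CASAVA and build mm10, per the submitters' processing notes. Not given in the sources used here: the peak caller, its thresholds, and how input and spike-in reads were handled. The score column of the deposited lists is 1 for every peak, so only positions and widths were used.

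Peaks were set against a RefSeq gene table of GRCm38.p6 with Python 3.11.15, numpy 2.4.6 and pandas 2.3.3. An overlap needed 1 bp. Starts came from a promoter table for 17492 of 21900 genes, and both gene ends were used for the other 4408, Myc and Mettl14 included. Covered bases per window were compared by exact permutation (two-sided, 6 assignments of the 4 lists of a mark). Alternatives were 5 kb and 50 kb flanks, 1 kb around the start, peaks with at least 50% in the window, peaks above the smallest width, lists of equal length, each list left out, and a replicate block. The counting was tested on simulated data (196 of 196 and 197 of 197 planted genes recovered in the wide window). The rule for named genes took all 6 members, neighbours, Mettl14, the 3 nearest genes of each member, and up to 4 list genes per class (knockout-only, control-only, all 4 lists) in list order. Mxi1, Mlxipl, Ccnd2, Zfp42, Tfcp2l1, Esrrb and the genes of the closing section were named after their values were seen. A gene of the cofactor list is not reported here by name. The members and lists were chosen with earlier results of these data known.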

Additional observations from a re-analysis of the deposited data

How the results depend on the processing

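Which genes fell into the class called in both lists of one condition and in neither of the other depended on the window. For H3K4me3 the count of knockout-only genes was 1 in the wide window, 2 (Myc and Mycl) with 50 kb on either side, and 0 with 5 kb, within 1 kb of the start and with lists cut to equal length; without peaks of the smallest width it was 1, Max in place of Mycl. For H3K27ac it was 0, and 1 (Max) within 1 kb of the start. For H3K27me3 it was 0, and 1 with 5 kb on either side (Mycl) and within 1 kb of the start (Myc). Among all protein-coding genes this class held 18.1% for H3K4me3, 2.95% for H3K27ac and 4.25% for H3K27me3 in the wide window. Within 1 kb of the start it held 14.0%, 2.83% and 2.37%. For the other settings, those with 1 list left out included, no share over all genes is given. Leaving out 1 list at a time, which lowers the number of calls required, gave 1 to 2 knockout-only genes for H3K4me3, 0 to 1 for H3K27ac and 0 to 2 for H3K27me3, and 0 to 1 control-only genes for H3K27ac. Of the 12 differences in covered bases that were not 0, 100 of 120 recomputed values kept their direction, 12 turned and 8 became 0. H3K27ac turned at Mycn (119 bp with 5 kb, 250.5 bp at the start) and at Mga (1123 bp and 456.5 bp), where the smaller windows leave out the distant regions. Without peaks of the smallest width, H3K4me3 at Mycn was -324.5 bp, because both knockout peaks there are 501 bp wide and drop out. At equal list length it was also -324.5 bp, and H3K27me3 at Mycl was -187.5 bp. The cause of the 2 turns at equal length was not tested. Without 1 list, the ranges that change sign were -148 to 501 bp for H3K4me3 at Mycn, -1202.5 to 939.5 bp for H3K27ac at Mycn and -421.5 to 1081.5 bp for H3K27ac at Mycl. The H3K4me3 difference at Max stayed between 546.5 and 1047.5 bp and the H3K27ac difference at Mga between -2317.5 and -903.5 bp when any 1 list was left out. With lists cut to equal length, the difference at Max was 335 bp, against 797 bp with the lists as deposited. That at Mga was -1610.5 bp in both cases.

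With replicate numbers as a block the differences keep their size, for example 797 bp for H3K4me3 at Max, and the smallest possible paired p is 0.5. The numbers did not pair the libraries: over genes, the replicate differences of knockout and control lists correlated at 0.00435 (H3K4me3), 0.00491 (H3K27ac) and -0.00908 (H3K27me3). Read depth is unknown, so how far missing peaks reflect shallow libraries could not be measured.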

Other observations

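Between 20 and 50 kb from the genes, Mga, Myc and Max had H3K27ac regions called in 2 or more lists. These regions were looked up after the windows had been examined. On the lower-coordinate side of Mga, beyond the wide region in its window, 2 further regions were called in both control lists. The nearer one, 25.5 kb before the gene, was called in neither knockout list and measured 501 bp and 651 bp in control cells. The other, 27.6 kb before the gene, measured 0 bp and 501 bp in the knockout lists, against 895 bp and 772 bp in the control lists. One more peak, of 501 bp at 20.3 kb, was called in control replicate 2 alone. In all, the zone from 20 to 50 kb around Mga held 0 and 1 H3K27ac peaks in the knockout lists, against 3 and 3 in the control lists. Of all merged H3K27ac regions, 2.24% had the pattern of the one at 25.5 kb, and 3.56% had the reverse. No share over all genes is given for the zone from 20 to 50 kb, here or below. Whether the counts around Mga are unusual was therefore not tested.

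Myc, which had no H3K27ac in its window, had a region 48.6 kb past its higher-coordinate end, inside the long noncoding RNA gene Pvt1. It measured 831 bp and 0 bp in the knockout lists, against 640 bp and 1031 bp in the control lists. Knockout replicate 2 had a separate 501 bp H3K27ac peak 47.9 kb past the gene, overlapping a 1049 bp H3K4me3 peak that no other list had within 50 kb of Myc on that side. Around Max the same zone held 2 and 2 H3K27ac peaks in the knockout lists, against 2 and 4 in the control lists, all but 1 of them inside Fntb. A region 33.4 kb past the end of Max measured 501 bp and 1467 bp in the knockout lists, against 1930 bp and 0 bp in the control lists. One 41.4 kb past it measured 946 bp in knockout replicate 1 and 501 bp in control replicate 2.

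Before the lower end of Mycl, H3K27me3 was called in this zone in all 4 lists, at neighbouring places. At 34.4 kb, at the gene Mfsd2a, a lipid transporter, a region measured 1937 bp in knockout replicate 1 and 1406 bp in control replicate 1. Knockout replicate 2 had a peak of 806 bp at 31.8 kb, and control replicate 2 had peaks of 629 bp at 33.1 kb and 501 bp at 45.9 kb. Knockout replicate 1 had a further 501 bp peak at 23.2 kb.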
